A study of Mus musculus with 8 samples.

Results

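The 7 mouse genes described here carry the MHC class II route of antigen presentation: Cd74, H2-Aa, H2-Ab1, H2-Eb1, H2-DMa, H2-DMb1 and Ciita. They were taken by symbol from a table of read counts for 38293 Ensembl genes, and all 7 were among the 14567 genes that passed a filter on low counts. They were chosen with their levels in these libraries already known, so the difference between the genotypes is given for them as a description, without a test. The tissue was heart ventricle, left and right mixed, from mice of 8 weeks, and poly(A) RNA was sequenced. The 4 HET samples carried 1 Pkp2 allele with a deletion, labelled PKP2 c.1755A/WT, and the 4 WT samples were labelled PKP2 WT/WT. Pkp2 encodes plakophilin 2, a protein of the desmosomes that hold cardiac muscle cells together. The series title and design name the allele a deletion, while the genotype label leaves that word out and the deposited table is named for the loss of another base. The labels give no strain, no sex and no statement that each sample was a separate animal, so errors and p-values below measure the spread between these samples only.

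MHC class II molecules are pairs of an alpha and a beta chain that present peptides from endocytosed protein to CD4+ T cells. H2-Aa and H2-Ab1 encode the alpha and beta chains of the I-A molecule, and H2-Eb1 the beta chain of I-E. Cd74 is the invariant chain, which escorts newly made class II molecules to endosomes and blocks their groove until it is degraded. H2-DMa and H2-DMb1 encode the H2-DM heterodimer, which removes the last piece of the invariant chain and helps peptide to load. Ciita is the transactivator that class II promoters depend on, brought there by the RFX, CREB and NF-Y factors on the X and Y boxes. In the heart, resident macrophages, dendritic cells and B cells are the usual sources of class II transcripts, and interferon-gamma raises Ciita in many other cell types.

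Total counts were 32397302 to 38611008 in HET libraries and 38510257 to 41234883 in WT libraries. Pkp2 itself measured 88.2 to 106 CPM (counts scaled to library size with the TMM factors of edgeR) in HET libraries, against 148 to 169 CPM in WT libraries, with a log2 fold change of -0.74 (SE 0.0653) and an adjusted p of 0.00376 (edgeR quasi-likelihood fit, Benjamini-Hochberg). Pkp2 was the only gene called in that fit. 1 library stood apart from the rest: WT replicate 3 had far higher levels of class II, class I and some other immune genes than the other 7. Of its counts, 14.7% came from the mitochondrial genome, against 17.1% to 19.1% in the others. The comparisons of the members are therefore given with it and without it. Markers of cardiac muscle such as Myh6, the alpha myosin heavy chain, were abundant in all 8 libraries. Of the 5 atrial markers, Myl7 and Sln had at most 4 and 2 counts, while Nppa, which ventricles can also express, had 218 to 461 CPM in HET libraries and 269 to 352 CPM in WT libraries, and Myl4 averaged 2.01 ± 0.318 CPM in HET libraries and 2.83 ± 0.752 CPM in WT libraries (SD, n = 4 each).

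All 7 class II genes were highest in WT replicate 3, and all 7 were lowest in WT replicates 1 and 2. The 4 HET libraries lay between these extremes and close together, and WT replicate 4 lay within the HET range for 5 of the 7 genes. Cd74, the invariant chain, measured 134.5, 137.3, 116.2 and 140.9 CPM in HET replicates 1 to 4, against 86.23, 88.51, 461.1 and 127.1 CPM in WT replicates 1 to 4. HET libraries averaged 132.2 ± 11.0 CPM, against 190.7 ± 181.2 CPM in WT libraries (SD, n = 4 each), or 100.6 ± 22.97 CPM in WT without replicate 3 (SD, n = 3). The HET range lay inside the WT range. In tissue RNA, fewer cells of a type and less RNA per cell cannot be told apart, and this holds for every level given here.

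**Figure D1:**
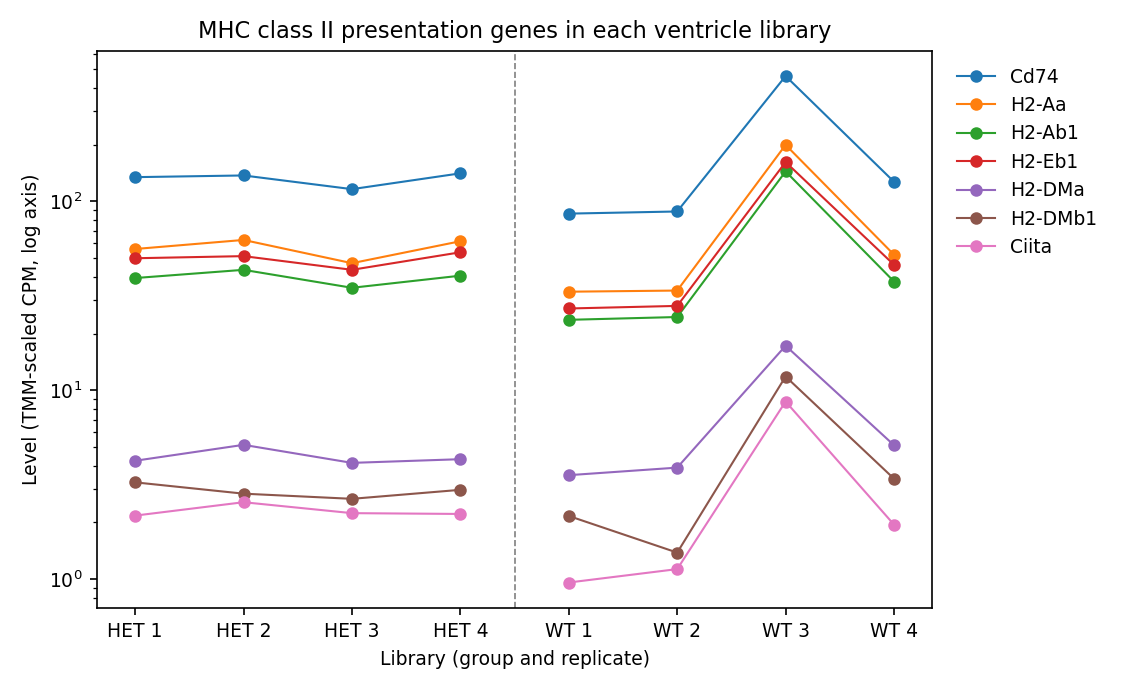
Level of each of the 7 class II genes (TMM-scaled CPM, log axis) in the 4 HET libraries, left, and the 4 WT libraries, right; each point is 1 library, and the lines only join the values of 1 gene. Every gene peaks in WT replicate 3, at 461.1 CPM for Cd74, and is lowest in WT replicates 1 and 2.

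The classical chains followed Cd74. H2-Aa, the I-A alpha chain, had 56.02, 62.56, 47.13 and 61.58 CPM in HET libraries, against 33.29, 33.76, 199.3 and 52.24 CPM in WT libraries. H2-Ab1, its beta partner, had 39.32, 43.46, 34.92 and 40.47 CPM in HET libraries, against 23.63, 24.45, 144.2 and 37.67 CPM in WT libraries. H2-Eb1, the I-E beta chain, had 50.05, 51.36, 43.47 and 53.83 CPM in HET libraries, against 27.13, 28.0, 161.6 and 46.22 CPM in WT libraries. For these 3 genes every HET library was above WT replicates 1 and 2 and far below WT replicate 3, and HET replicate 3 was the lowest of the HET libraries. HET libraries averaged 56.82 ± 7.08 CPM for H2-Aa, 39.54 ± 3.54 CPM for H2-Ab1 and 49.68 ± 4.42 CPM for H2-Eb1 (SD, n = 4). WT libraries averaged 79.64 ± 80.23 CPM, 57.48 ± 58.15 CPM and 65.75 ± 64.53 CPM for the same genes in that order (SD, n = 4). Without replicate 3 the WT means were 39.76 ± 10.81 CPM for H2-Aa, 28.58 ± 7.88 CPM for H2-Ab1 and 33.79 ± 10.78 CPM for H2-Eb1 (SD, n = 3).

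The genes of the peptide-loading H2-DM heterodimer were about an order of magnitude lower in CPM. H2-DMa had 4.24, 5.148, 4.132 and 4.322 CPM in HET libraries, against 3.557, 3.9, 17.23 and 5.122 CPM in WT libraries. H2-DMb1 had 3.259, 2.839, 2.666 and 2.975 CPM in HET libraries, against 2.163, 1.384, 11.84 and 3.406 CPM in WT libraries. H2-DMa showed the smallest gap between HET libraries and the low WT libraries: its HET mean was 1.20 times the mean of WT replicates 1 and 2. For H2-DMb1, WT replicate 4 was above all 4 HET libraries. HET means were 4.46 ± 0.465 CPM for H2-DMa and 2.935 ± 0.251 CPM for H2-DMb1, against WT means of 7.452 ± 6.553 CPM and 4.699 ± 4.834 CPM (SD, n = 4 each), or 4.193 ± 0.823 CPM and 2.318 ± 1.02 CPM in WT without replicate 3 (SD, n = 3). H2-DMb1 has a near-identical copy, H2-DMb2, and H2-DMa overlaps Brd2 on the opposite strand, so reads of both genes may have been split, shared or dropped in counting.

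Ciita, the transactivator, was the lowest of the 7. It had 82, 82, 84 and 79 reads in HET libraries, against 40, 45, 361 and 76 reads in WT libraries, which is 2.173, 2.558, 2.239 and 2.217 CPM in HET libraries, against 0.9613, 1.132, 8.724 and 1.946 CPM in WT libraries. It was the only member for which every HET library was above WT replicates 1, 2 and 4, a pattern that 3.8% of all 14693 genes tested without WT replicate 3 showed. The HET mean was 2.297 ± 0.177 CPM, against 3.191 ± 3.714 CPM in WT libraries (SD, n = 4 each) and 1.347 ± 0.526 CPM in WT without replicate 3 (SD, n = 3). Ciita overlaps Dexi on the opposite strand, and the strand setting of the counting is not given in the sources used here.

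Across the 7 genes, WT replicate 3 was 3.5 to 4.17 times the median of the other 7 libraries, with H2-Eb1 at the low end and H2-DMb1 at the high end. Summed over the members, CPM was 250.7 to 306.3 in HET libraries, 177 to 273.7 in WT replicates 1, 2 and 4, and 1004 in WT replicate 3. Of all 14567 genes tested, 92 (0.632%) were at least as far above the median of the other 7 libraries in WT replicate 3 as H2-Eb1 was. For 434 genes (2.98%), WT replicates 1 and 2 were the lowest pair of libraries. Both features were found together for 10 genes, the 7 members and Gm8730, Cass4 and Wsb2-ps, a count that was made after the members' values were seen and carries no test.

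The HET libraries varied little among themselves. The coefficient of variation over the 4 HET libraries was 7.69% to 12.5% for the 7 genes. WT replicate 4 was 0.847 to 1.16 times the HET mean, so it resembled the HET libraries more than the other WT libraries for all members. The HET mean was 1.20 to 2.19 times the mean of WT replicates 1 and 2, lowest for H2-DMa and highest for Ciita.

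Levels of different genes were compared per length, as RPKM, reads per kilobase of exon and scaled to the same library size as CPM. Exon length was that of all annotated exons of a gene merged, whether used in heart or not. It was 3798 bases for H2-Aa and 3448 for H2-DMa, against 1944 for H2-Eb1 and 1681 for H2-DMb1. In the median of the 7 libraries other than WT replicate 3, Cd74 was highest at 75.7 RPKM, followed by H2-Eb1 at 23.78, H2-Ab1 at 14.67, H2-Aa at 13.76, H2-DMb1 at 1.689, H2-DMa at 1.23 and Ciita at 0.228 RPKM. In WT replicate 3 the order was the same, with 274.7 RPKM for Cd74, 83.15 for H2-Eb1, 56.14 for H2-Ab1, 52.46 for H2-Aa, 7.044 for H2-DMb1, 4.997 for H2-DMa and 0.915 RPKM for Ciita. The invariant chain thus led the classical chains, which led H2-DM and the transactivator, in RPKM as in CPM. The order within the classical chains and within H2-DM depended on these lengths. In CPM, HET means were higher for H2-Aa (56.82) than for H2-Eb1 (49.68), and for H2-DMa (4.46) than for H2-DMb1 (2.935). The neighbours H2-Ab1 and H2-Aa were not separated beyond their spread, since the ratio of H2-Aa to H2-Ab1 per kilobase ran from 0.913 to 1.03 over those 7 libraries. H2-DMa and H2-DMb1 were not separated either, with a ratio of 0.634 to 1.37.

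Ratios between members in the library that stood apart lay within the range of the other libraries, or just above it for H2-Aa to H2-Eb1. H2-Aa to H2-Ab1, the partners of I-A, had a per-kilobase ratio of 0.934 in WT replicate 3, inside the range of the other libraries. Cd74 to H2-Aa was 5.24 in WT replicate 3, against 4.97 to 5.93 in the other 7 libraries, and H2-Aa to H2-Eb1 was 0.631, against 0.555 to 0.628. H2-DMa to H2-DMb1 was 0.709 in WT replicate 3, and its range over the other libraries was the widest of the 6 ratios for its size. Cd74 to Ciita, target to transactivator, was 351, 305, 295 and 361 in HET replicates 1 to 4, against 509, 444, 300 and 371 in WT replicates 1 to 4, so the libraries lowest in class II transcripts had the least Ciita for their Cd74. These 2 libraries had 40 and 45 Ciita reads, which limits the precision of that ratio.

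The RefSeq promoter windows, from 250 bases before to 50 after each transcript start in GRCm38.p6, were searched for the boxes through which Ciita acts, written as GNAACT for the core of the X box and TGATTGG for the Y box, on both strands. A pair was counted where both lay on the same strand 15 to 45 bases apart within the 250 bases before the start. A window was found for 4 members, H2-Aa, H2-DMa, H2-DMb1 and H2-Eb1. The pair was present for H2-Aa, H2-DMb1 and H2-Eb1, and for 80 (0.244%) of 32851 windows of all genes, while GNAACT alone was in 37.3% and TGATTGG alone in 7.23%. The letters were chosen after these promoters had been seen, and a match is a description of the sequence, not of binding. In H2-Aa the X core began 81 bases and the Y box 50 bases before the start, with 25 bases between them. In H2-Eb1 they began 91 and 61 bases before the start, 24 bases apart, and in H2-DMb1 94 and 63 bases before it, 25 bases apart. The 110 bases just before the RefSeq start of the I-A alpha and I-E beta genes are shown because both hold the pair of boxes. H2-DMa, which also peaked in WT replicate 3, held it in neither of its 2 windows, and H2-Eb2, which had at most 6 reads in any library, held it. H2-Aa lies on the minus strand at chr17:34287824-34287933 and H2-Eb1 on the plus strand at chr17:34305757-34305866 (GRCm38), and capitals mark the X core and then the Y box.
H2-Aa: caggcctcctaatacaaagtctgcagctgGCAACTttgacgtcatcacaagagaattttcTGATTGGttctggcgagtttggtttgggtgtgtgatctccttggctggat
H2-Eb1: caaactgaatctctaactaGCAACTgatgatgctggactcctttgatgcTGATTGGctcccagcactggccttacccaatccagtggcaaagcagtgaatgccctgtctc

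In the comparison of HET with WT over all 8 libraries, the log2 fold changes of the 7 members were all negative, with standard errors about as large as the changes. They were -0.53 (SE 0.606) for Cd74, -0.49 (SE 0.651) for H2-Aa, -0.54 (SE 0.652) for H2-Ab1 and -0.40 (SE 0.636) for H2-Eb1. They were -0.74 (SE 0.549) for H2-DMa, -0.68 (SE 0.668) for H2-DMb1 and -0.48 (SE 0.734) for Ciita. None of the 7 members was called at an adjusted p under 0.05 (edgeR quasi-likelihood fit, Benjamini-Hochberg), in a comparison where 0.00686% of all genes were called, and nothing is read from this count because the members were chosen on this contrast. At an unadjusted p under 0.05, 401 of all genes were higher in HET and 529 were lower. DESeq2 called 13 genes (0.0892%), none of them a member, and gave no adjusted p for Cd74, H2-Aa, H2-Ab1 and Ciita. The median log2 fold change was -0.53 over the 7 members and -0.00 over all genes.

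Without WT replicate 3 all 7 signs turned. The log2 fold changes were 0.39 (SE 0.142) for Cd74, 0.51 (SE 0.186) for H2-Aa, 0.47 (SE 0.169) for H2-Ab1 and 0.55 (SE 0.200) for H2-Eb1. They were 0.09 (SE 0.149) for H2-DMa, 0.34 (SE 0.255) for H2-DMb1 and 0.77 (SE 0.236) for Ciita. Again none of the members was called by the edgeR quasi-likelihood fit after Benjamini-Hochberg adjustment, which called 0.00681% of 14693 genes, nor by DESeq2, which called 29 genes or 0.197%. At an unadjusted p under 0.05, edgeR had 571 genes higher in HET and 618 lower. The median over the members was 0.47, and that over all genes was -0.01. The direction of the class II genes in HET hearts therefore rested on 1 WT library.

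**Figure D2:**
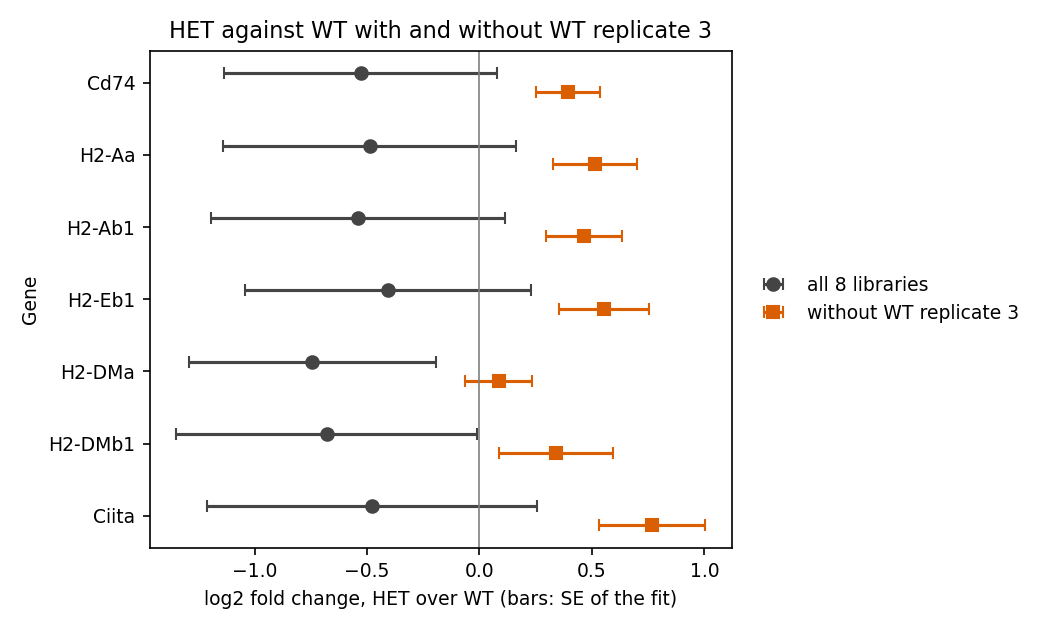
Log2 fold change of HET over WT for each class II gene from the edgeR fit, with all 8 libraries (grey circles) and without WT replicate 3 (orange squares); bars are the standard error of the fit. All 7 values are negative with the library, from -0.74 to -0.40, and positive without it, from 0.09 to 0.77.

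A class II score, the mean over the members of log2 CPM minus each gene's mean, put each library on 1 scale. It was -0.05, 0.05, -0.21 and -0.01 in HET replicates 1 to 4, against -0.76, -0.77, 1.81 and -0.07 in WT replicates 1 to 4. The HET values span a small stretch in the middle, and the WT values hold both the top and the bottom. HET minus WT was -0.10 with all libraries and 0.48 without WT replicate 3. The sample titles hold digits whose meaning the labels do not give. HET replicates 1, 3 and 4 and WT replicate 1 share 1 set of them, and HET minus WT in the score was 0.67 there. HET replicate 2 and WT replicates 3 and 4 share another, where the difference was -0.82, or 0.12 without WT replicate 3. The first set holds 1 WT library and the second 1 HET library, so neither within-set value has replicates in both groups. WT replicate 2 is alone in its set, and the part of these digits in the result was not tested.

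The members moved together across libraries. Over the 21 pairs of members, Pearson's r of log2 CPM was 0.922 to 0.998 across 8 libraries, WT replicate 3 included, and 0.618 to 0.997 with a median of 0.84 across the other 7. Cd74, H2-Aa, H2-Ab1 and H2-Eb1 were the tightest group, with r of 0.988 to 0.997 in those 7 libraries. Ciita followed H2-Ab1 at 0.97 and H2-Eb1 at 0.96, whereas H2-DMa and H2-DMb1 were the loosest pair at 0.618. These points share libraries and scaling, and the lower genes carry more counting noise, so the values are descriptions.

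Other genes of the class II locus were low. In WT replicate 3, the 2 that were tested were less far above the median of the other libraries than the members. H2-Ob, the beta chain of the H2-DM inhibitor H2-O, had 0.821 to 1.07 CPM in HET libraries, 0.906 to 1.27 CPM in WT replicates 1, 2 and 4, and was 1.44 times the median of the other 7 in WT replicate 3. H2-DMb2, the near-identical copy of H2-DMb1, had 0.344 to 0.655 CPM in HET libraries and 0.385 to 0.461 CPM in those WT libraries, with a ratio of 1.5. H2-Oa had 0 to 7 reads in HET libraries and 2 to 10 in WT libraries, and H2-Eb2 0 to 2 in HET libraries and 0 to 6 in WT libraries. The highest count of both, 10 and 6 reads, was in WT replicate 3. H2-Ea-ps, the entry under which the annotation lists the alpha chain that pairs with H2-Eb1, had 0 reads in all 8 libraries, where 3 reads would have been 0.0721 to 0.0936 CPM. Among the tested genes of this group, 0 of 2 were called, with a median log2 fold change of -0.11 (0.03 without WT replicate 3).

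The factors that carry Ciita to the promoter varied little across libraries, WT replicate 3 included. 0 of the 7 X and Y box factors (Rfx5, Rfxank, Rfxap, Nfya, Nfyb, Nfyc and Creb1) were called, with a median log2 fold change of 0.04, or 0.00 without WT replicate 3, and 1 was under an unadjusted p of 0.05 (2 without WT replicate 3). Nfyc had 30 to 32.1 CPM in HET libraries and 27.9 to 33.3 CPM in WT replicates 1, 2 and 4, and Rfxank 21.5 to 24 CPM in HET libraries and 21.9 to 24.5 CPM in those WT libraries. Nfya had 22.5 to 24.5 CPM in HET libraries and 20 to 21.6 CPM in those WT libraries. In WT replicate 3 it had 25.2 CPM, above all HET libraries, and its log2 fold change over 8 libraries was 0.10 (SE 0.0773). In WT replicate 3 the 7 factors had a median of 1.01 times the other libraries, against 3.83 times for the members. The factor under that p was Rfx5, singled out after its values were seen. It had 7.82 to 10.1 CPM in HET libraries, against 9.2 to 11.2 CPM in WT replicates 1, 2 and 4, with a log2 fold change of -0.24 (SE 0.1) and an adjusted p of 0.77 (edgeR quasi-likelihood fit, Benjamini-Hochberg), and the change ran from -0.32 to -0.12 over the alternatives.

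The interferon-gamma axis, which in textbook accounts acts upstream of Ciita, divided in WT replicate 3. 0 of its 9 tested genes were called, none was under an unadjusted p of 0.05 with or without WT replicate 3, and the median log2 fold change was -0.03 (0.04 without WT replicate 3). The receptor chain Ifngr2 was 0.948 times and the kinase Jak1 1.07 times the median of the other 7 libraries there. Among genes picked after their values were seen, Irf1 was 3.26 times, Irf8 2.03 times and Socs1 4.09 times that median in WT replicate 3. Ifng itself had 1 read, in WT replicate 3, and 0 in the other 7 libraries.

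MHC class I genes, which present peptides made inside the cell to CD8+ T cells, shared the peak in WT replicate 3 but not the low libraries. Their median ratio in WT replicate 3 was 3.73, with 4.0 for B2m, the class I light chain, 4.61 for the heavy chain H2-K1 and 2.78 for H2-D1. Nlrc5, the transactivator of class I genes, was 11.8 times and the peptide transporter Tap1 10.7 times the median of the others there, both named after their values were seen. 0 of 14 class I genes were called and none was under an unadjusted p of 0.05 with or without WT replicate 3, and all 14 log2 fold changes were negative both with WT replicate 3 (median -0.89) and without it (median -0.13). The class I score was -0.43, -0.14, -0.73 and -0.09 in HET replicates 1 to 4, against -0.18, -0.23, 1.93 and -0.12 in WT replicates 1 to 4. Its lowest libraries were HET replicates 3 and 1, while the class II score was lowest in WT replicates 1 and 2. Across 8 libraries the scores of both classes had an r of 0.88, and across the 7 without WT replicate 3 an r of -0.02.

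**Figure D3:**
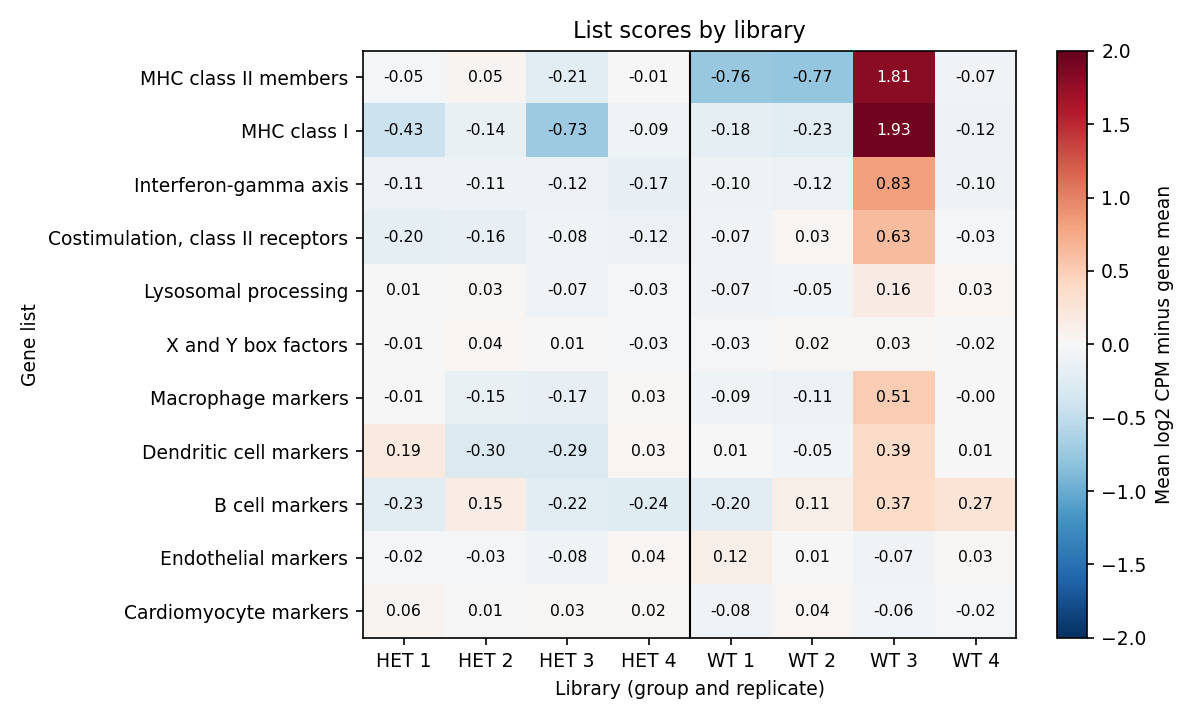
Score of each gene list (mean log2 CPM minus gene mean, printed in each cell and coloured from blue, low, to red, high) in the 4 HET libraries, left, and the 4 WT libraries, right. The class II members reach 1.81 in WT replicate 3 and -0.77 in WT replicate 2, whereas the class I list is high in WT replicate 3 and lowest in HET replicate 3.

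Lysosomal genes that cut the invariant chain and antigens mostly varied little. 0 of 12 were called, 2 were under an unadjusted p of 0.05 (0 without WT replicate 3), and the median log2 fold change was 0.01 (0.04 without WT replicate 3). Their score had an r with the class II score of 0.91 over 8 libraries and 0.67 over the 7 without WT replicate 3. Both were the highest of the lists compared, and the macrophage list had 0.90 and 0.29. The lysosomal score itself ran only from -0.07 to 0.03 in those 7 libraries. The aspartic protease Ctsd had 1180 to 1250 CPM in HET libraries, against 1100 to 1170 CPM in WT replicates 1, 2 and 4, and Ctsb and Ctsl were 0.98 and 0.901 times the median of the others in WT replicate 3. Ctss, the cathepsin known for the last cut of the invariant chain and named after its values were seen, was the one that moved with the members there, at 2.28 times. It had 11.5 to 14.9 CPM in HET libraries and 11.4 to 13.1 CPM in WT replicates 1, 2 and 4. Of the costimulatory ligands and class II receptors, 0 of 9 were called, 2 were under an unadjusted p of 0.05 (2 without WT replicate 3), and the median log2 fold change was -0.17 (-0.12 without WT replicate 3). In WT replicate 3, Cd274, the ligand of the inhibitory receptor PD-1, was 13.7 times the median of the others, Cd44 1.46 times and Mif, a ligand of Cd74, 0.967 times.

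**Figure D4:**
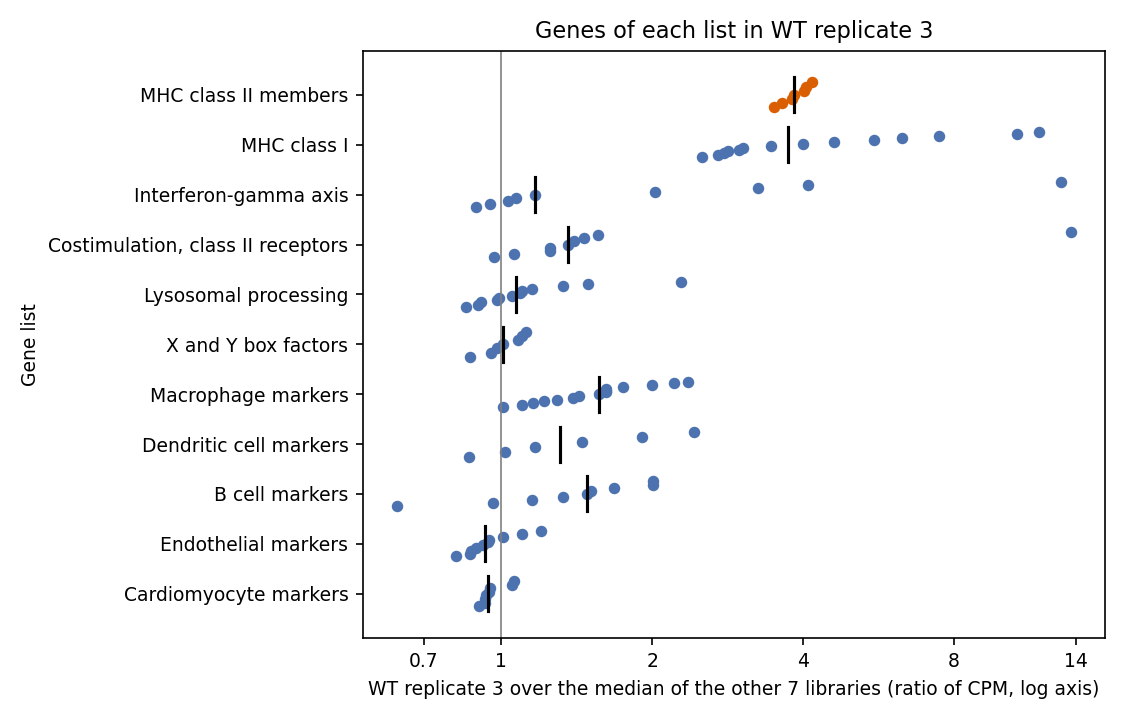
Ratio of WT replicate 3 to the median of the other 7 libraries (CPM, log axis) for each tested gene of a list; each point is 1 gene and the black tick is the list's median. The 7 class II genes (orange) lie together at 3.5 to 4.17, class I genes spread around 3.73, and the X and Y box factors sit at 1.01.

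Markers of the cell types that could carry class II transcripts moved less than the members did. The 15 macrophage markers summed to 293 to 327.9 CPM in HET libraries, 299.5 to 318.8 CPM in WT replicates 1, 2 and 4, and 452.5 CPM in WT replicate 3, where 11 of the 15 were highest and the median ratio was 1.57. Among them the complement genes C1qa and C1qc were 1.62 times, and the growth factor receptor Csf1r 1.29 times, the median of the others. The 10 dendritic cell markers summed to 29.25 to 32.54 CPM in HET libraries, 27.05 to 36.03 CPM in WT replicates 1, 2 and 4, and 37.48 CPM in WT replicate 3. Most of each sum came from Zbtb46, which endothelial cells also express, at 24.8 to 28.4 CPM in HET libraries and 31.3 CPM in WT replicate 3. The sums therefore say little of the other dendritic cell markers. Over the 6 tested ones the median ratio in WT replicate 3 was 1.31, from 0.861 for Siglech to 2.43 for Batf3, which had 7 to 41 reads. The defining dendritic cell markers Flt3 and Xcr1 had 0 to 4 reads in HET libraries and 0 to 17 reads in WT libraries. In WT replicate 3, Zbtb46 was 1.17 times the others, Clec10a 1.02 times and Itgax 1.91 times. The 11 B cell markers in the table summed to 10.4 to 14.48 CPM in HET libraries, 12.5 to 16.31 CPM in WT replicates 1, 2 and 4, and 19.65 CPM in WT replicate 3, with ratios of 1.51 for Ighm and 1.48 for Cd79b. In WT replicates 1 and 2, where class II genes were lowest, the macrophage score was -0.09 and -0.11, inside the HET range of -0.17 to 0.03. Single macrophage markers, picked after their values were seen, went both ways there. Fcgr1 (1.99 and 2.31 CPM, against 2.35 to 3.4 in HET libraries) and Adgre1 (8.99 and 9.61, against 9.64 to 11.1) were lowest there. Cd68 was above the HET range, at 9.11 and 10.2 CPM against 7.7 to 8.73. Of all genes tested, 2.98% had these 2 libraries lowest. The part of these cell types in the class II levels was not tested.

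Other marker lists were low or varied little as a whole. T and NK cell markers summed to 1.484 to 2.807 CPM in HET libraries, 1.811 to 2.1 CPM in WT replicates 1, 2 and 4, and 2.272 CPM in WT replicate 3. Plasma cell markers summed to 8.336 to 9.204 CPM in HET libraries and 7.875 to 9.589 CPM in WT libraries. Monocyte and neutrophil markers summed to 2.517 to 3.789 CPM in HET libraries and 2.038 to 5.455 CPM in WT libraries, with Mpo at 0 in all 8. The 3 of them that were tested had a median ratio of 0.645 in WT replicate 3, from 0.302 for S100a9 to 2.13 for Plac8. Of the thymus markers none passed the filter, and Dntt and Foxn1 had 0 reads in all 8 libraries. Endothelial markers had a median ratio of 0.93 and cardiomyocyte markers 0.94 in WT replicate 3. The 2 endothelial markers under an unadjusted p of 0.05 (edgeR quasi-likelihood fit) were Icam2 and Ramp2, singled out after their values were seen. Icam2 had 22 to 24.6 CPM in HET libraries and 26.5 to 29.5 CPM in WT libraries. Ramp2 had 32.1 to 34.4 and 38 to 42.1 CPM, and the adjusted p was 0.77 for each (Benjamini-Hochberg). Over all 16 lists other than the members, 0 of 110 tested genes were called (edgeR quasi-likelihood fit, Benjamini-Hochberg), and 15 were under an unadjusted p of 0.05 (11 without WT replicate 3). Of all 14567 genes tested, 401 higher and 529 lower in HET were under that p. Without WT replicate 3 these were 571 and 618 of 14693. The lists were chosen with earlier results known, so nothing is read from these counts. DESeq2 called none of the 110 either, with no adjusted p for 7 of them.

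Ciita lies on chromosome 16 at 10480059-10528418 (GRCm38), on the same chromosome as Pkp2, whose start is 5685 kb beyond the end of Ciita. Of 33 annotated genes within 500 kb of Ciita, 26 were in the table, 8 were tested and 0 were called (edgeR quasi-likelihood fit, Benjamini-Hochberg). The neighbour Clec16a had 84 ± 8.67 CPM in HET libraries, against 63.1 ± 6.12 CPM in WT libraries (SD, n = 4 each), with a log2 fold change of 0.41 (SE 0.0874), or 0.43 without WT replicate 3. Its HET range of 71.3 to 89.8 CPM lay above its WT range of 57 to 70.3 CPM, a pattern shown by 1.7% of all genes tested, and WT replicate 3 was not apart, at 66 CPM. Its adjusted p was 0.77 from the edgeR quasi-likelihood fit and 0.0302 from DESeq2, both after Benjamini-Hochberg adjustment, and the log2 fold change was 0.26 to 0.48 over the alternatives. Dexi, which overlaps Ciita, had 25.1 ± 1.54 CPM in HET libraries, against 27.6 ± 3.96 CPM in WT libraries (SD, n = 4 each), and was also highest in WT replicate 3, at 33.2 CPM. The log2 fold changes of Emp2, Nubp1, Tvp23a, Socs1, Rmi2 and Litaf were -0.08, -0.18, -0.82, -0.76, 0.39 and -0.05 with all 8 libraries. Without WT replicate 3 they were -0.03 for Emp2, -0.11 for Nubp1, -0.69 for Tvp23a, -0.00 for Socs1, 0.64 for Rmi2 and 0.04 for Litaf.

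Ciita is listed as ENSMUSG00000022504, and the remaining members lie elsewhere. In the class II region of chromosome 17 stand H2-DMa (ENSMUSG00000037649, 34119541-34139101), H2-DMb1 (ENSMUSG00000079547, 34153072-34160230), H2-Ab1 (ENSMUSG00000073421, 34257689-34269419), H2-Aa (ENSMUSG00000036594, 34282744-34287823, the only one on the minus strand) and H2-Eb1 (ENSMUSG00000060586, 34305867-34316674). Cd74 (ENSMUSG00000024610) is on chromosome 18 at 60803848-60812652. The 7 genes on 3 chromosomes shared the peak in WT replicate 3 and the lowest values in WT replicates 1 and 2. The low was slightest for H2-DMa, whose log2 fold change without WT replicate 3 was 0.09 (SE 0.149).

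The genes outside the list whose log2 CPM was most like the class II score, among 12568 with a mean of at least 1 CPM, were Eif4e3 (r = 0.98 over 8 libraries), Tbc1d25 (0.97), and Lacc1, Ptprc, Tgfbi, Baz2a, Manf and Cxcl16 (0.96 each). Their rise in WT replicate 3 was far smaller than that of the members: Lacc1 and Ptprc, the pan-leukocyte antigen CD45, were 1.96 and 1.94 times the median of the others, and Baz2a 1.06 times. Over the 7 libraries without WT replicate 3, 1 of these 8 genes, Tbc1d25, was again among the 8 most like the score, with r = 0.96. An r above 0.9 was reached by 63 genes over 8 libraries and 31 genes over 7, and with so few libraries, which share depth and scaling, these values only rank genes by likeness.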

How the data were processed

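The deposited table gives raw counts, not normalised by the authors, in 1 column for each of 8 samples. STAR 2.4.2a, HTSeq 0.6.1 and build GRCm38 (mm10) are named in the submitters' processing notes, and the annotation release and strand setting are not given in the sources used here. GENCODE M21 supplied symbols for 36429 genes, positions and exon lengths. Groups follow the genotype label, and replicate numbers follow deposition order and pair nothing. Within groups, no pair of libraries agreed within sampling noise (lowest mean chi-square 14 over genes with at least 100 counts).

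Counts were filtered, scaled by TMM and fitted with edgeR 4.0.16 in R 4.3.3 (quasi-likelihood test, Benjamini-Hochberg adjustment over 14567 genes, threshold 0.05), after tests on simulated data. Standard errors of log2 fold changes were derived from the F statistic. Scores used log2 CPM with a prior count of 2. DESeq2 1.42.0, limma 3.58.1, other scalings and filters, the title digits and leaving out each replicate were alternatives. The members and the 16 other lists were chosen with earlier results of these data known. Named genes were the members, the 3 of highest mean CPM in each other list, genes tested within 500 kb of Ciita, the 8 most like the score, and Pkp2. Depth of 32397302 to 41234883 counts puts 3 counts at 0.0721 to 0.0936 CPM, which covers counting error only. Promoter sequences are RefSeq's for GRCm38.p6. Some genes that this rule names are not reported here.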

Additional observations from a re-analysis of the deposited data

Results flagged for a closer look

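A sample was set apart where its gap to the nearest other sample of its group, divided by the range of the group, was above Dixon's 95% value for 4 samples. Of 46 groups checked, 12 were past it. This count cannot be set against the 1 in 20 that chance passes. The groups share the same libraries and include the members and lists chosen with earlier results known. The class II genes were chosen with these levels known and with WT replicate 3 already singled out, so their values here are a description and no test. For 6 of them the library set apart was WT replicate 3, at 461.1 CPM for Cd74, 199.3 for H2-Aa, 144.2 for H2-Ab1, 161.6 for H2-Eb1, 17.23 for H2-DMa and 8.724 CPM for Ciita. H2-DMb1 was also highest there, at 11.84 CPM, but was not past the value. The same library was set apart in the class I score at 1.93, the interferon-gamma axis at 0.83, costimulation and class II receptors at 0.63 and the dendritic cell markers at 0.39. Among HET libraries, replicate 4 was set apart in the interferon-gamma axis, at -0.17, below the other HET libraries, and replicate 2 in the B cell markers, at 0.15, above them.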

How the results depend on the processing

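The number of genes called, 1 in the fit of all libraries, was 2 with no filter, 13 with DESeq2, 29 with DESeq2 without WT replicate 3, and 2 with the title digits as a covariate without WT replicate 3. Leaving out each replicate in turn gave 1 to 3. The members' median log2 fold change of -0.53 was 0.47 with DESeq2 without WT replicate 3 and 0.49 with the title digits without it, and -0.78 to 0.47 over the fits that left out 1 replicate each. It was also positive, at 0.04, under limma-voom with sample weights, where 5 members were positive, and was -0.16 with the title digits as a covariate, where 1 member, Ciita, was positive. The other alternatives were negative. The score difference between HET and WT ran from -0.38 to 0.48 and was positive only without WT replicate 3. The cause of these moves was not tested. No member and no gene of the other lists was called under any of 18 alternatives. The fits without WT replicate 3 that used DESeq2 or the title digits were added after seeing the data. No paired analysis was possible because the replicate numbers follow deposition order.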

Other observations

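The 3 genes outside the list that shared both counted features of the members were singled out after their values were seen. WT replicate 3 was at least as far above the median of the other 7 libraries as for H2-Eb1, and WT replicates 1 and 2 were lowest. Gm8730 did not peak in WT replicate 3, which lay below HET replicates 2 and 3. Gm8730 fell into separate levels that cut across genotype: it had 20.7, 21.6, 22.5 and 0.814 CPM in HET replicates 1 to 4, against 0.745, 0.654, 21 and 0.845 CPM in WT replicates 1 to 4. Wsb2-ps, listed as a pseudogene by its name, had 1.06, 0.998, 1.07 and 0.309 CPM in HET libraries, against 0.192, 0.226, 1.3 and 0.23 CPM in WT libraries. HET replicates 1 to 3 and WT replicate 3 were the high libraries for both genes, a grouping that differs from that of the class II genes, for which HET replicate 4 was not low. Cass4, an adaptor protein of the Cas family, had 0.98, 0.686, 0.986 and 1.09 CPM in HET libraries, against 0.601, 0.654, 2.51 and 0.666 CPM in WT libraries, with 22 to 39 reads in HET libraries and 25 to 104 in WT libraries.

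Expression of A530016L24Rik, Pde6d and Suds3 was most like the class II score over the 7 libraries without WT replicate 3, with r of 0.98, 0.97 and 0.97. These 3 genes had no peak in WT replicate 3, where they were 1.03, 1.0 and 0.896 times the median of the others.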
